A study of Homo sapiens with 12 samples.

Results

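The genes described here are 44 genes of the lysosome and of autophagy, chosen by name from the 29607 genes of one expression table. The set holds lysosomal membrane proteins, acid hydrolases other than the cathepsins (the major lysosomal proteases), subunits of the lysosomal proton pump, the transcription factors TFEB and TFE3, and proteins that build autophagosomes. All 44 were measured in every library and all 44 passed the filter on low values. Expression was measured by RNA sequencing of KMS11, an established line of human multiple myeloma, a cancer of plasma cells.

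The 12 libraries fall into 6 groups of 2, all of KMS11 cells. The shControl cells carried a control short hairpin RNA, and the sh1 and sh2 cells each carried a different hairpin against STK17B, also called DRAK2, a protein kinase related to the death-associated kinases. The inhibitor libraries are, per the series' design, from control-hairpin cells treated with an STK17B inhibitor whose name, dose and duration are not given in the sources used here. The design names a vehicle-treated arm, but none of the 12 libraries is labelled as vehicle. The inhibitor was therefore compared with the shControl libraries, whose labels name no vehicle. The Vector cells carried an empty vector, and the overexpression cells a vector with STK17B cDNA. No source says whether the 2 libraries of a group came from cultures grown apart, so the p-values measure the spread between libraries, which may be technical.

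Lysosomes are acidic compartments in which hydrolases break down proteins, glycans and lipids delivered by endocytosis and autophagy. The V-type ATPase pumps protons into them, and heavily glycosylated membrane proteins such as LAMP1 and LAMP2 line them. Autophagy encloses cytoplasm in a double membrane that is decorated with ATG8-family proteins (the LC3 and GABARAP proteins) and then fuses with the lysosome. Many of these genes share a promoter element, the CLEAR motif, that TFEB and TFE3 bind when they enter the nucleus, a step that the kinase mTORC1 restrains by phosphorylation. Plasma cells secrete very large amounts of protein and are known to rely on autophagy to limit stress in the endoplasmic reticulum.

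Promoter sequences are shown for 4 members whose behaviour in the libraries differed, so that the CLEAR core can be seen beside the values given further on. LAMP1 and ATP6V0D1 were higher with the hairpins whichever control group was used, MCOLN1 was not called higher with the hairpins, and SMPD1 had the largest rise with the hairpins. Each run holds the 250 bases before the RefSeq start (GRCh38.p14), 5′ to 3′ on the gene's strand, and capitals mark every CACGTG, a palindrome that reads the same on both strands. The positions are chr13:113296989-113297238 for LAMP1 (plus strand), chr16:67481158-67481407 for ATP6V0D1 (minus strand), chr19:7522374-7522623 for MCOLN1 (plus strand) and chr11:6390224-6390473 for SMPD1 (plus strand).
LAMP1: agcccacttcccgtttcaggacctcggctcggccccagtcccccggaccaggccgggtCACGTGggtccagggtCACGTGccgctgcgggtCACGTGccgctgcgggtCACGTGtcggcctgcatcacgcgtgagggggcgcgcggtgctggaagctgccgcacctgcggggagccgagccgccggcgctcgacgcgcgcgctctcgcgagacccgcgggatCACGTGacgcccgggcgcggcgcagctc
ATP6V0D1: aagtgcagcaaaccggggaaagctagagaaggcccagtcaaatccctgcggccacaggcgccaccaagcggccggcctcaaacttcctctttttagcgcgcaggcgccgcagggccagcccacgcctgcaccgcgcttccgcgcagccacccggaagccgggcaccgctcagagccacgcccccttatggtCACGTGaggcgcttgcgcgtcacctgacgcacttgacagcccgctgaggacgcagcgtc
MCOLN1: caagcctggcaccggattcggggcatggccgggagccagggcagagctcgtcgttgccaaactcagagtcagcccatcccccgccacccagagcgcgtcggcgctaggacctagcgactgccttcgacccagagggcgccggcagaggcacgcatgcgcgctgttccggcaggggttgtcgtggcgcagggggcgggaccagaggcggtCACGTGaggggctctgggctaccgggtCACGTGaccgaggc
SMPD1: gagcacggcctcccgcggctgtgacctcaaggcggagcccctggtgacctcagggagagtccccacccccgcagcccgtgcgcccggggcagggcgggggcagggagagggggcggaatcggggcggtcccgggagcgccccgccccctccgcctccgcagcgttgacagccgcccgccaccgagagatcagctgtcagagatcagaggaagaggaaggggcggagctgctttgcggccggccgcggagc

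The printed bases held 5 CACGTG matches for LAMP1, 1 for ATP6V0D1, 2 for MCOLN1 and none for SMPD1. Windows of 250 bases before to 50 bases after a start were found for 33 of the 44 members, some of which have several starts. CACGTG lay in a window of 6 of these 33 members (ATP6V0D1, CD63, GAA, LAMP1, MCOLN1 and NEU1), or 18.2%, against 8.77% of the 27305 genes with a window. The longer form TCACGTG, which contains CACGTG and was searched on both strands, was in 15.2% of the members and 4.49% of all genes, and the full palindromic CLEAR consensus was in 6.06% (GAA and MCOLN1) and 0.421%. Of the 6 members with CACGTG, 4 were called higher with the hairpins than in shControl, and so were 22 of the 27 members whose window lacked it, where 26.2% of all tested genes were. Against Vector, 2 of the 6 were higher and 1 lower, where 18.6% and 29.4% of all tested genes were. Of the 27, 7 were higher and 6 lower. The order of the higher shares turned with the control, by too few genes to be read as a result. These matches are descriptions of the letters in these windows and do not show that a factor was bound.

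The targeted kinase followed the labels. STK17B was at 27.1 and 27.4 TPM (a level scaled for gene length and for the total of the library) in shControl, at 12.7, 10.9, 14.7 and 14.5 TPM in the hairpin libraries, at 24.9 and 22.4 TPM with the inhibitor, at 28.2 and 31.5 TPM in Vector and at 94.1 and 84.5 TPM with overexpression. On the log2(TPM + 1) scale it was -1.0 with the hairpins and 1.55 with overexpression, and the inhibitor's -0.20 did not pass the test (adjusted p = 0.0902). TPM sums to the same total in each library, so depth is unknown, and between 16577 and 17354 genes were above 0 per library. Marker lists were used to check the cells. The 10 plasma cell markers summed to between 2335 and 3718 TPM and were lowest in the hairpin libraries. Macrophage markers, which would mark a cell type rich in lysosomes, summed to between 1.99 and 3.74 TPM in all libraries with 1 of 10 at 0 throughout, and the defining markers CD14, CSF1R, CD163 and MRC1 did not exceed 0.277 TPM in any library. Fibroblast, epithelial and T or NK cell lists summed to at most 3.18, 15.4 and 7.91 TPM.

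The 44 genes covered a wide range of levels. CD63, a tetraspanin of late endosomes and lysosomes, had the highest median over the 12 libraries at 379 TPM, followed by PSAP, the precursor of the saposins that present sphingolipids to their hydrolases, at 371 TPM, and by LAMP1 at 176 TPM. GAA, the acid alpha-glucosidase that degrades glycogen, was the lowest at 1.35 TPM, and the next lowest, the beta-mannosidase MANBA, was at 7.08 TPM. Summed over the 44 genes, the level was 2424 and 2429 TPM in shControl, 3164 and 3114 in sh1, 2957 and 2969 in sh2, 2508 and 2542 with the inhibitor, 2929 and 2947 in Vector and 3302 and 3351 with overexpression. The shControl and inhibitor libraries were thus the lowest, and the overexpression libraries the highest. In bulk RNA, a change in a gene's RNA per cell and a change in the share of cells that express it cannot be told apart.

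**Figure D1:**
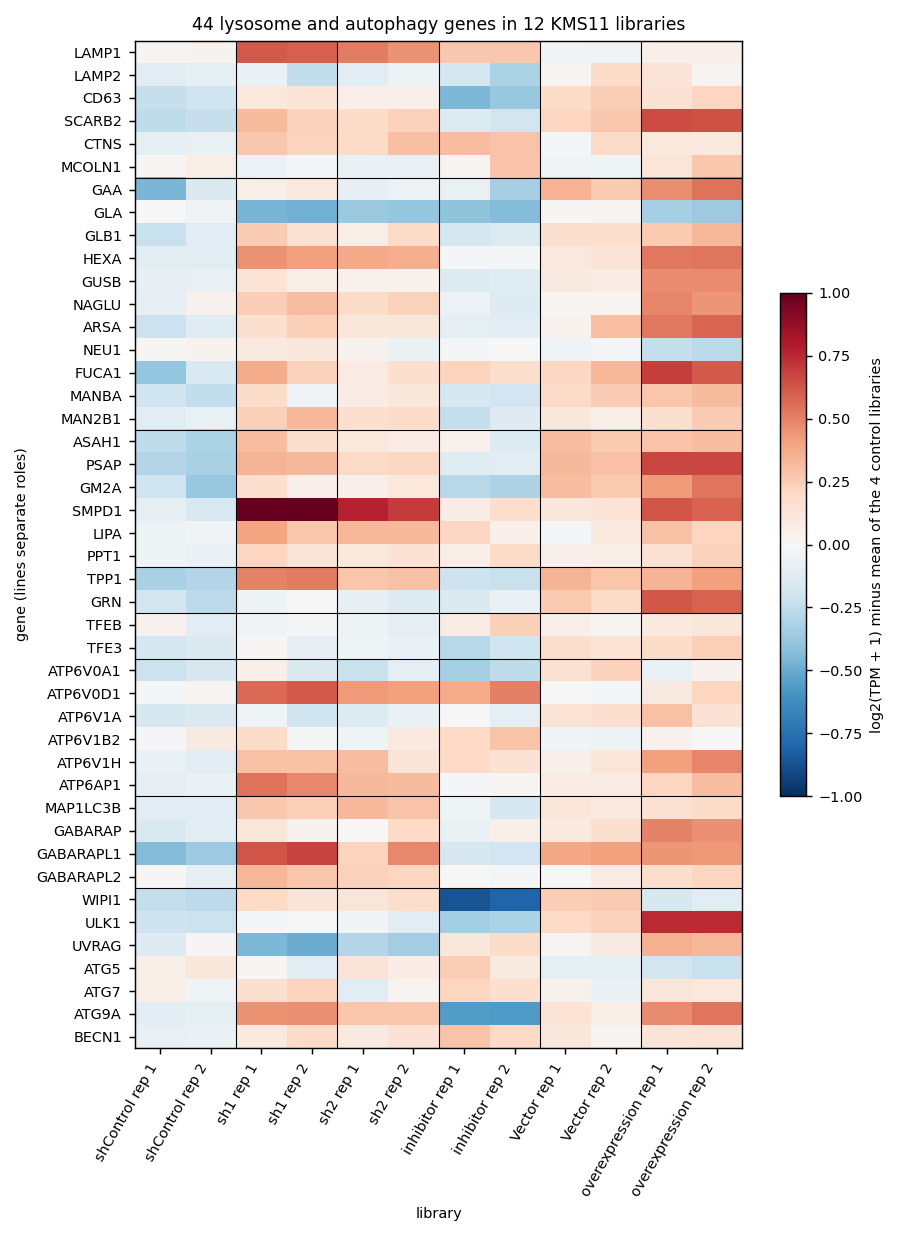
Expression of the 44 genes (rows, grouped by role) in the 12 libraries (columns, 2 per group), as log2(TPM + 1) minus the mean of the 4 control libraries, with colours saturating at 1 and -1. The hairpin libraries are darkest red for SMPD1, the inhibitor libraries darkest blue for WIPI1, and the shControl columns are paler or bluer than the Vector columns for most genes.

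The 2 control groups were not alike for these genes, and this difference was taken first because each control serves a different comparison. Differences were tested with limma on log2(TPM + 1) over the 12731 genes that reached 1 TPM in 2 or more libraries, and a gene was called at a Benjamini-Hochberg adjusted p below 0.05. Vector was higher than shControl for 27 of the 44 members, where 21.4% of all tested genes were called higher, and the members' median log2 difference was 0.22 against 0.09 for all genes. None was called lower by limma (7.86% of all genes were), although 2 were lower at an unadjusted p below 0.05. The higher genes included 8 of 11 glycosidases and sulfatases, 4 of 6 lipid hydrolases and activators, the peptidase TPP1 and progranulin, and 3 of 4 ATG8 proteins.

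PSAP was at 254 and 249 TPM in shControl and 391 and 382 TPM in Vector, a log2 difference of 0.62 ± 0.02 SE, adjusted p = 9.65e-07. GABARAPL1, an ATG8 protein of the GABARAP branch, was at 6.24 and 6.62 TPM in shControl and 11.8 and 12 TPM in Vector (0.80 ± 0.08 SE, adjusted p = 0.000121). TPP1, a tripeptidyl peptidase, was at 22.9 and 23.5 TPM and 37 and 35.3 TPM (0.61 ± 0.04 SE, adjusted p = 1.68e-05). In each of the 3 the Vector libraries lay above the shControl libraries with no overlap. LAMP1 (-0.06), ATP6V0D1 (-0.02) and GLA (0.04) were among the 17 members that did not pass the test. Of all genes called, 73.1% were higher in Vector, but 43% after median-of-ratios scaling and 48.4% after quantile normalization, which moved the median of all genes from 0.09 to 0.00 and -0.02 and that of the members from 0.22 to 0.11 and 0.17. The vector backbone, the hairpin and the time in culture cannot be told apart in this difference, and the assignment of the deposited control columns to the 2 groups is itself an inference from their numbers.

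With the STK17B hairpins, most of these genes were higher than in shControl. Of the 44, 33 were called higher and 2 lower, where 26.2% and 20.2% of all tested genes were, and the median log2 change was 0.31 against 0.03 for all genes. The largest rise was that of SMPD1, the acid sphingomyelinase, and the 2 that fell were GLA, the alpha-galactosidase A that trims globotriaosylceramide, and UVRAG, a partner of the Beclin 1 lipid kinase complex. LAMP2, MCOLN1, NEU1, TFEB, ATP6V0A1, ATP6V1A, ATP6V1B2, ATG5 and ATG7 did not pass the test. Against Vector the same hairpin libraries gave 12 members higher and 10 lower, with a median of 0.00 against -0.05 for all genes, where 18.6% and 29.4% of all genes were called.

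**Figure D2:**
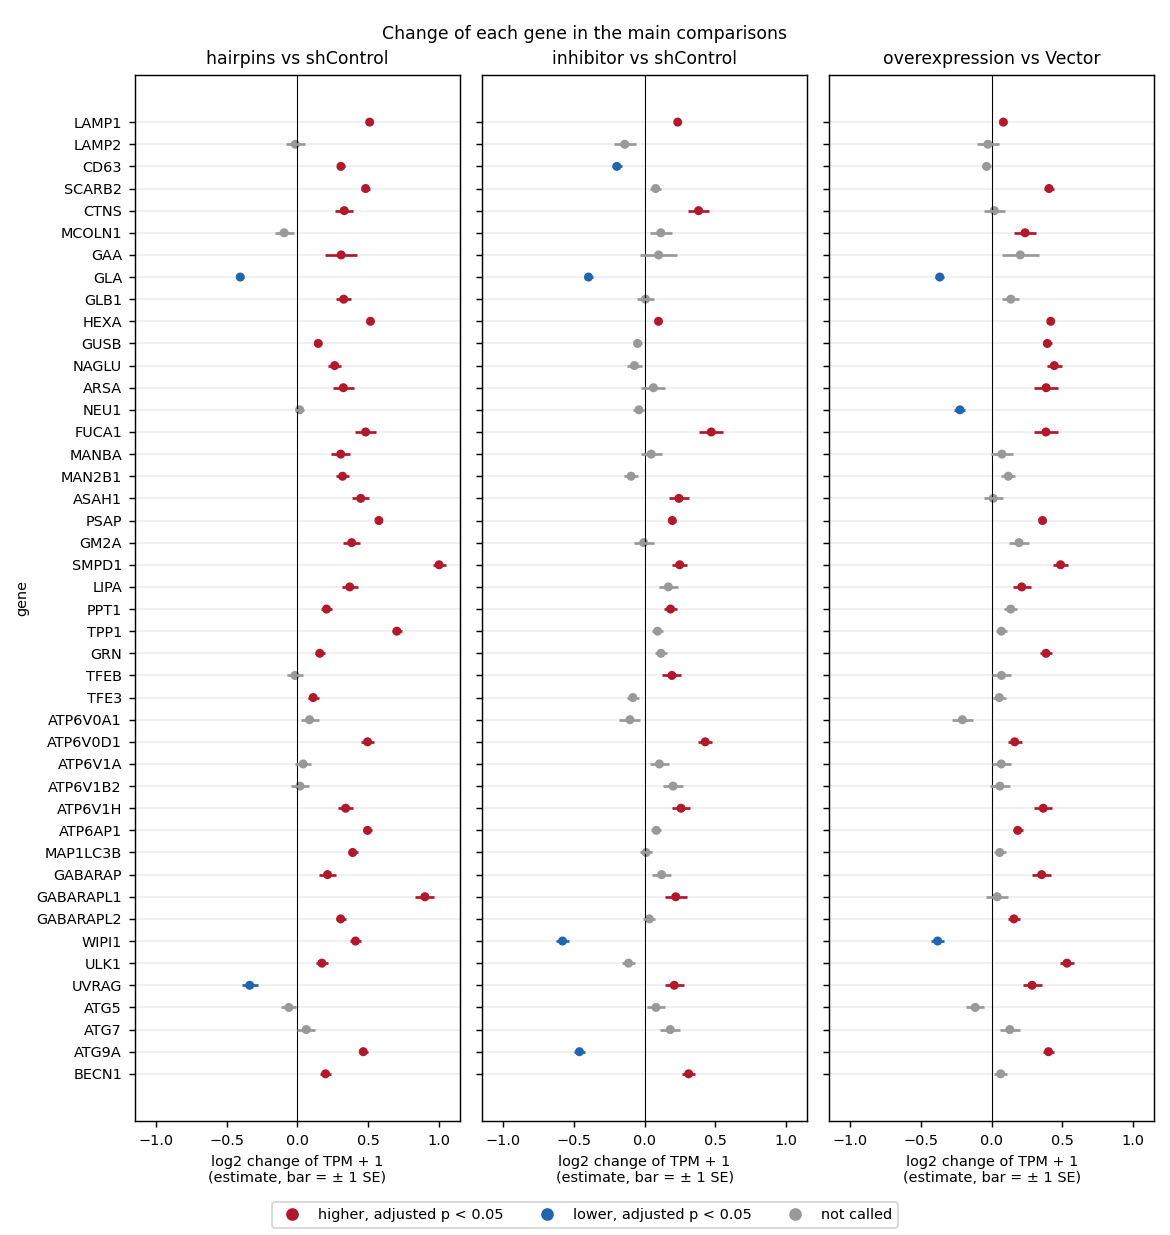
Log2 change of each of the 44 genes (points, with bars of 1 standard error from limma) for the mean of both hairpins against shControl, the inhibitor against shControl and overexpression against Vector. Red points are called higher and blue points lower at an adjusted p below 0.05, and GLA is blue in all 3 panels.

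Among the lipid-handling members, all 6 were called higher with the hairpins. SMPD1 (chromosome 11, 6390431 to 6394998, plus strand; GENCODE 29 on GRCh38) was at 8.4 and 8.06 TPM in shControl and at 19.5, 19.3, 16.2 and 15.4 TPM in the hairpin libraries, a log2 change of 1.0 ± 0.05 SE, adjusted p = 4.88e-07. Every hairpin library was above every library of both control groups, and against Vector, at 9.86 and 10.1 TPM, the change was 0.75 ± 0.05 SE, adjusted p = 2.83e-06. LIPA, the acid lipase that hydrolyses cholesteryl esters and triglycerides, was likewise called against both control groups, at 0.37 and 0.29. PSAP (chromosome 10, 71816298 to 71851375, minus strand) behaved otherwise: at 396, 391, 358 and 360.4 TPM in the hairpin libraries it was 0.58 ± 0.02 SE, adjusted p = 1.56e-07 above shControl, but -0.04 from Vector (adjusted p = 0.13). The acid ceramidase ASAH1 (0.45) and the palmitoyl-protein thioesterase PPT1 (0.21) were also called against shControl alone, and the GM2 activator GM2A went from 0.38 against shControl to -0.19 against Vector, both called.

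The peptidase TPP1 and progranulin (GRN), a secreted protein that is cut into granulins in the lysosome, both rose against shControl. TPP1 was at 41.3, 41.9, 35.4 and 35.7 TPM in the hairpin libraries, all above the shControl libraries (0.70 ± 0.04 SE, adjusted p = 8.04e-07), while the Vector libraries, at 37 and 35.3 TPM, overlapped those of sh2 (0.09 against Vector, not called). GRN was called in opposite directions, at 0.16 against shControl and -0.29 against Vector.

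Of the 11 glycosidases and sulfatases, 9 rose against shControl and GLA fell. HEXA, the alpha subunit of beta-hexosaminidase, was at 93.5 and 93.4 TPM in shControl and 139, 135, 132 and 131 TPM in the hairpin libraries (0.52 ± 0.02 SE, adjusted p = 3.84e-07). All 4 hairpin libraries were also above the Vector libraries at 109 and 111 TPM, with a change of 0.29 ± 0.02 SE, adjusted p = 1.29e-05. NAGLU, which degrades heparan sulfate, and the alpha-mannosidase MAN2B1 were the other glycosidases called higher against both controls, at 0.26 and 0.22 and at 0.32 and 0.14. The MAN2B1 call against Vector was lost without sh1 replicate 2, sh2 replicate 2 or either Vector library. GLB1, GUSB, ARSA, FUCA1 and MANBA were between 0.15 and 0.48 above shControl and did not pass the test against Vector. GAA was too low for a firm call: its 0.31 against shControl had an adjusted p of 0.0491 and lost its call under most other settings.

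GLA was the exception that held in every comparison with a control. GLA (chromosome X, 101397803 to 101408012, minus strand) was at 67.4 and 65.9 TPM in shControl, 68.2 and 69 TPM in Vector and 48.9, 48.3, 52 and 51.6 TPM in the hairpin libraries. All hairpin libraries lay below all 4 control libraries, with a log2 change of -0.40 ± 0.03 SE, adjusted p = 4.46e-06 against shControl and -0.44 ± 0.03 SE, adjusted p = 2.83e-06 against Vector. NEU1, the lysosomal sialidase, was at 0.02 and did not pass the test.

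Among the membrane proteins, LAMP1 stood out. LAMP1 (chromosome 13, 113297241 to 113323672, plus strand) was at 161 and 161 TPM in shControl, 154 and 153 TPM in Vector and 241, 239, 224 and 215 TPM in the hairpin libraries. All hairpin libraries were above all control libraries, and the change was 0.51 ± 0.02 SE, adjusted p = 4.05e-07 against shControl and 0.58 ± 0.02 SE, adjusted p = 3.8e-07 against Vector. Its partner LAMP2, which also serves chaperone-mediated autophagy, was at 57.8 and 58.1 TPM in shControl, 59.5, 52.3, 57.7 and 60.2 TPM with the hairpins, 55.2 and 49.9 TPM with the inhibitor, 63.4 and 71 TPM in Vector and 68.2 and 63.4 TPM with overexpression. LAMP2 did not pass the test against shControl (-0.01) and was lower than Vector (-0.22 ± 0.07 SE, adjusted p = 0.0195). MCOLN1, the calcium channel of the lysosomal membrane, was at 21.7 and 22.5 TPM in shControl, 20.6, 21.2, 20.4 and 20.4 TPM with the hairpins, 21.9 and 26.3 TPM with the inhibitor, 20.9 and 20.8 TPM in Vector and 23.5 and 26 TPM with overexpression. The hairpin libraries were not called different from either control for MCOLN1 (-0.09 and -0.01). SCARB2, a membrane receptor that sorts cargo to the lysosome, rose by 0.48 against shControl and was at 0.00 against Vector, and the cystine exporter CTNS was at 0.33 and 0.16, of which only the first was called. CD63 was called in opposite directions, at 0.31 against shControl and -0.13 against Vector.

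Of the 6 proton pump members, 3 rose against shControl and the same 3 against Vector. ATP6V0D1 (chromosome 16, 67438014 to 67481237, minus strand), a subunit of the membrane sector, was at 55.7 and 57.2 TPM in shControl, 55.9 and 55.7 TPM in Vector and 83.8, 86.5, 75.7 and 74.8 TPM in the hairpin libraries. The 4 hairpin libraries were above all 4 control libraries, by 0.50 ± 0.04 SE, adjusted p = 2.14e-05 against shControl and 0.51 ± 0.04 SE, adjusted p = 1.98e-05 against Vector. The accessory subunit ATP6AP1 was at 0.50 and 0.34, and the regulatory subunit ATP6V1H at 0.34 and 0.17, the latter losing its call when either sh1 library, sh2 replicate 1 or either Vector library was left out. The catalytic subunit ATP6V1A (0.04), ATP6V1B2 (0.02) and ATP6V0A1 (0.09) did not pass the test against shControl. Against Vector, ATP6V1A (-0.26 ± 0.06 SE, adjusted p = 0.00458) and ATP6V0A1 (-0.29 ± 0.06 SE, adjusted p = 0.00441) were called lower, with all 4 hairpin libraries below both Vector libraries.

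All 4 ATG8 proteins rose against shControl, and 2 also against Vector. MAP1LC3B, the LC3B protein used as a marker of autophagosomes, was at 55.9 and 56 TPM in shControl, 73.1, 71.7, 76 and 73.8 TPM with the hairpins, 58.9 and 53.9 TPM with the inhibitor, 66.1 and 65 TPM in Vector and 67.5 and 68.8 TPM with overexpression. The hairpin libraries lay above all the others, with changes of 0.39 ± 0.04 SE, adjusted p = 2.79e-05 against shControl and 0.17 ± 0.04 SE, adjusted p = 0.00436 against Vector, and reads of MAP1LC3B may be shared with its near-identical copy MAP1LC3B2. GABARAPL2 was at 124 and 116 TPM in shControl, 156, 149.7, 144 and 143 TPM with the hairpins, 123 and 122 TPM with the inhibitor, 124 and 130.3 TPM in Vector and 139.7 and 143 TPM with overexpression. The hairpin libraries were above all control libraries, and the changes were 0.31 and 0.22, both called. GABARAPL1 (chromosome 12, 10212458 to 10223130, plus strand) was at 14.2, 14.7, 10.4 and 12.6 TPM in the hairpin libraries, 0.90 ± 0.07 SE, adjusted p = 7.68e-06 above shControl, with no overlap. The Vector libraries for GABARAPL1 lay within the range of the hairpin libraries, and the 0.10 against Vector did not pass the test (adjusted p = 0.225). GABARAP was at 68.6 and 70.8 TPM in shControl, 82.8, 78, 76.1 and 87.4 TPM with the hairpins, 72.2 and 79.7 TPM with the inhibitor, 81.4 and 85 TPM in Vector and 108 and 105 TPM with overexpression, a change of 0.21 against shControl and -0.04 against Vector, of which only the first was called.

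The autophagy machinery was mixed. ATG9A, the lipid scramblase whose vesicles seed autophagosomes, rose against both controls (0.47 and 0.26). UVRAG was at 7.04 and 7.89 TPM in shControl, 7.98 and 8.35 TPM in Vector and 5.46, 5.23, 6.2 and 5.92 TPM with the hairpins, so that all hairpin libraries lay below all control libraries (-0.34 ± 0.06 SE, adjusted p = 0.00119 against shControl and -0.45 ± 0.06 SE, adjusted p = 0.000202 against Vector). ULK1, the kinase that starts autophagy, was at 8.92 and 8.88 TPM in shControl and 10.4, 10.4, 10.2 and 9.64 TPM with the hairpins, and was called higher against shControl (0.17) and lower against Vector (-0.25). WIPI1, which reads phosphatidylinositol 3-phosphate on the forming membrane, was at 0.41 against shControl and -0.10 against Vector, and Beclin 1 (BECN1) was at 0.20 and 0.06, and for both genes only the first value was called.

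With the hairpins, neither transcription factor gave a call against shControl that held under most settings. TFEB was at 16.3 and 14.5 TPM in shControl, 15.3, 15.7, 15.2 and 14.7 TPM with the hairpins, 16.7 and 18.9 TPM with the inhibitor, 16.4 and 16.1 TPM in Vector and 17 and 17.2 TPM with overexpression. The hairpin libraries overlapped the shControl range, and the log2 change of -0.02 did not pass the test. TFE3 was at 34.8 and 35.4 TPM in shControl, 39.5, 37.1, 38.1 and 37.4 TPM with the hairpins, 32.2 and 34.1 TPM with the inhibitor, 44.4 and 43.3 TPM in Vector and 44.7 and 46.3 TPM with overexpression. Its 0.11 against shControl was called (adjusted p = 0.0386) but lost its call under most other settings, and against Vector it was -0.20, called lower. RNA levels carry no information on where the 2 proteins were in the cell.

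Counting the members called in the same direction against both control groups, 12 were higher with the hairpins, where 13% of all tested genes were, and 2 were lower, where 15.1% of all genes were. The 12 were ATG9A, ATP6AP1, ATP6V0D1, ATP6V1H, GABARAPL2, HEXA, LAMP1, LIPA, MAN2B1, MAP1LC3B, NAGLU and SMPD1, and the 2 were GLA and UVRAG. A further 16 were higher against shControl alone, and 5 were called in opposite directions against the 2 controls (CD63, GM2A, GRN, TFE3 and ULK1). No share over all genes is given for these 16 and 5, so they are not set against a background. The count against both control groups was added after the values had been seen. The plasma cell markers fell in the hairpin libraries, 9 of 10 of them called lower with a median of -0.59 on the log2 scale, and their part in the changes of the 44 genes was not tested.

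**Figure D3:**
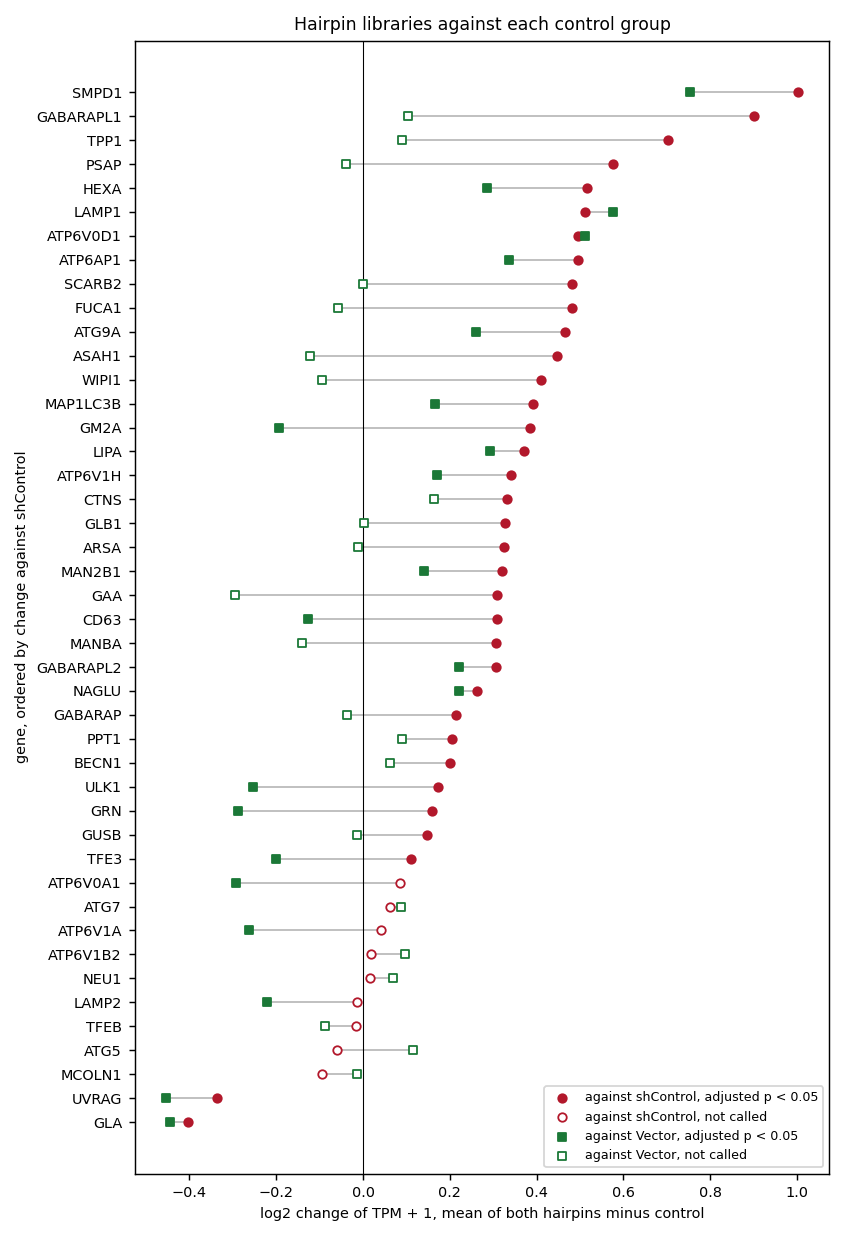
Log2 change of the mean of both hairpins for each of the 44 genes, against shControl (red circles) and against Vector (green squares), with filled symbols for calls at an adjusted p below 0.05 and a grey line joining the pair. LAMP1 and ATP6V0D1 keep their change, SMPD1 goes from 1.0 to 0.75, and GABARAPL1, TPP1 and PSAP lie at 0.10, 0.09 and -0.04 against Vector.

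The 2 hairpins gave similar counts for these genes. Against shControl, sh1 had 32 members higher and 2 lower, where 23.7% and 21.3% of all genes were called, and sh2 had 30 higher and 2 lower, where 22% and 13.4% were. Tested directly, 4 members were lower in sh2 than in sh1 (0.385% of all genes were) and 0 were higher by limma (1.16% of all genes), with 3 higher and 11 lower at an unadjusted p below 0.05. SMPD1 (-0.28 ± 0.05 SE, adjusted p = 0.0395), TPP1 (-0.22), ATP6AP1 (-0.19) and PSAP (-0.13) were the 4, each with both sh1 libraries above both sh2 libraries. None of the 4 calls held when any single hairpin library was left out. STK17B was at 12.7 and 10.9 TPM in sh1 and 14.7 and 14.5 TPM in sh2.

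The inhibitor libraries gave a smaller and divided response. Against shControl, 14 of the 44 members were called higher and 4 lower, where 28% and 11.8% of all genes were, and the median log2 change was 0.10 against 0.08 for all genes. Against Vector the same libraries gave 7 members higher and 24 lower, with a median of -0.20, where 26% and 27% of all genes were called, so that the balance turned with the control. The higher count against shControl is near the background, and it depended on scaling: 9 were higher and 8 lower after median-of-ratios scaling, and 7 higher and 11 lower after quantile normalization, with the members' median at 0.03 and -0.0031. Without shControl replicate 2 the members higher numbered 8. Over all genes, 70.3% of the calls were higher, but 55.9% and 51.9% under the 2 scalings, where 35.4% and 31.8% of all genes were called. Of the 10 plasma cell markers, 8 were called lower and 2 higher with the inhibitor, and their part in these changes was not tested.

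WIPI1 (chromosome 17, 68420948 to 68457513, minus strand) was at 24.8 and 24.3 TPM in shControl, 35 and 35.5 TPM in Vector and 15.7 and 16.5 TPM with the inhibitor. The inhibitor libraries were the lowest of all 12, and the log2 change was -0.58 ± 0.04 SE, adjusted p = 1.75e-05 against shControl and -1.09 ± 0.04 SE, adjusted p = 1.65e-07 against Vector. ATG9A (chromosome 2, 219219380 to 219229717, minus strand) was at 37.7 and 38 TPM in shControl, 45 and 42.6 TPM in Vector and 27.4 and 27.1 TPM with the inhibitor, again the lowest of all libraries (-0.46 ± 0.04 SE, adjusted p = 2.77e-05 and -0.67 ± 0.04 SE, adjusted p = 1.22e-06). GLA, at 51 and 49.8 TPM with the inhibitor, lay below all control libraries (-0.40 ± 0.03 SE, adjusted p = 2.16e-05 against shControl and -0.44 against Vector), and CD63 at -0.20 and -0.63 was the fourth member called lower against both control groups. These 4 kept their calls against both control groups under every setting run for that count.

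Against both control groups the inhibitor raised 4 members, where 19.5% of all genes were called higher against both, and lowered 4, where 10.6% were. The 4 higher were ATP6V0D1, at 73 and 79.8 TPM (0.43 ± 0.05 SE, adjusted p = 0.000208 against shControl), LAMP1 at 189 and 189 TPM (0.23 ± 0.03 SE, adjusted p = 0.000156), CTNS at 7.02 and 7.11 TPM in shControl and 9.58 and 9.44 TPM with the inhibitor (0.38 ± 0.07 SE, adjusted p = 0.00308), and BECN1 at 97.7 and 98.5 and 126 and 118 TPM (0.31 ± 0.05 SE, adjusted p = 0.000662). The inhibitor libraries lay above all control libraries for each of the 4. CTNS left this set of 4 without the filter, without either inhibitor library or without Vector replicate 1, and BECN1 under quantile normalization, without inhibitor replicate 1 or without Vector replicate 2. ATP6V0D1 and LAMP1 stayed in it under every setting run for it. After median-of-ratios scaling 8 members, and after quantile normalization 10, were lower against both controls. No share of all genes is given for that count under these scalings.

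FUCA1, the lysosomal alpha-fucosidase, was at 8.06 and 9.6 TPM in shControl and 12.8 and 12.4 TPM with the inhibitor (0.47 ± 0.08 SE, adjusted p = 0.00201), yet the Vector libraries were at 12.7 and 13.8 TPM and the change against Vector was -0.07, not called. SMPD1 at 9.6 and 10.3 TPM was 0.25 above shControl and level with Vector (0.00). ASAH1, GABARAPL1, HEXA and PSAP were called higher against shControl and lower against Vector, and for PSAP the 2 values were 0.20 and -0.42. The inhibitor's calls for TFEB (0.19 ± 0.07 SE, adjusted p = 0.0452), UVRAG (0.21), PPT1 (0.18), GABARAPL1 (0.22) and HEXA (0.10) were each lost under at least 6 other settings, and HEXA turned to -0.03 after quantile normalization.

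Set directly against the hairpin libraries, the inhibitor libraries were lower for 25 of the 44 members and higher for 5, where 21.6% and 30.9% of all genes were called, with a median log2 difference of -0.20 against 0.04. The lower genes lay in most roles: 7 of 11 glycosidases and sulfatases, 5 of 6 lipid-handling proteins and 3 of 4 ATG8 proteins. WIPI1 (-0.99 ± 0.04 SE, adjusted p = 1.34e-07), ATG9A (-0.93 ± 0.03 SE, adjusted p = 9.84e-08) and SMPD1 (-0.75 ± 0.05 SE, adjusted p = 1.71e-06) differed most, with no overlap between the libraries. UVRAG differed in the other direction (0.55 ± 0.06 SE, adjusted p = 4.37e-05). ATP6V0D1 (-0.07), CTNS (0.05) and GLA (0.01) did not pass the test of the difference, which does not show that they were alike. The count of 5 higher fell to between 1 and 3 under quantile normalization, median-of-ratios scaling, no filter and a fit of these groups alone, and to 2 or 3 without sh2 replicate 1 or without either inhibitor library.

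**Figure D4:**
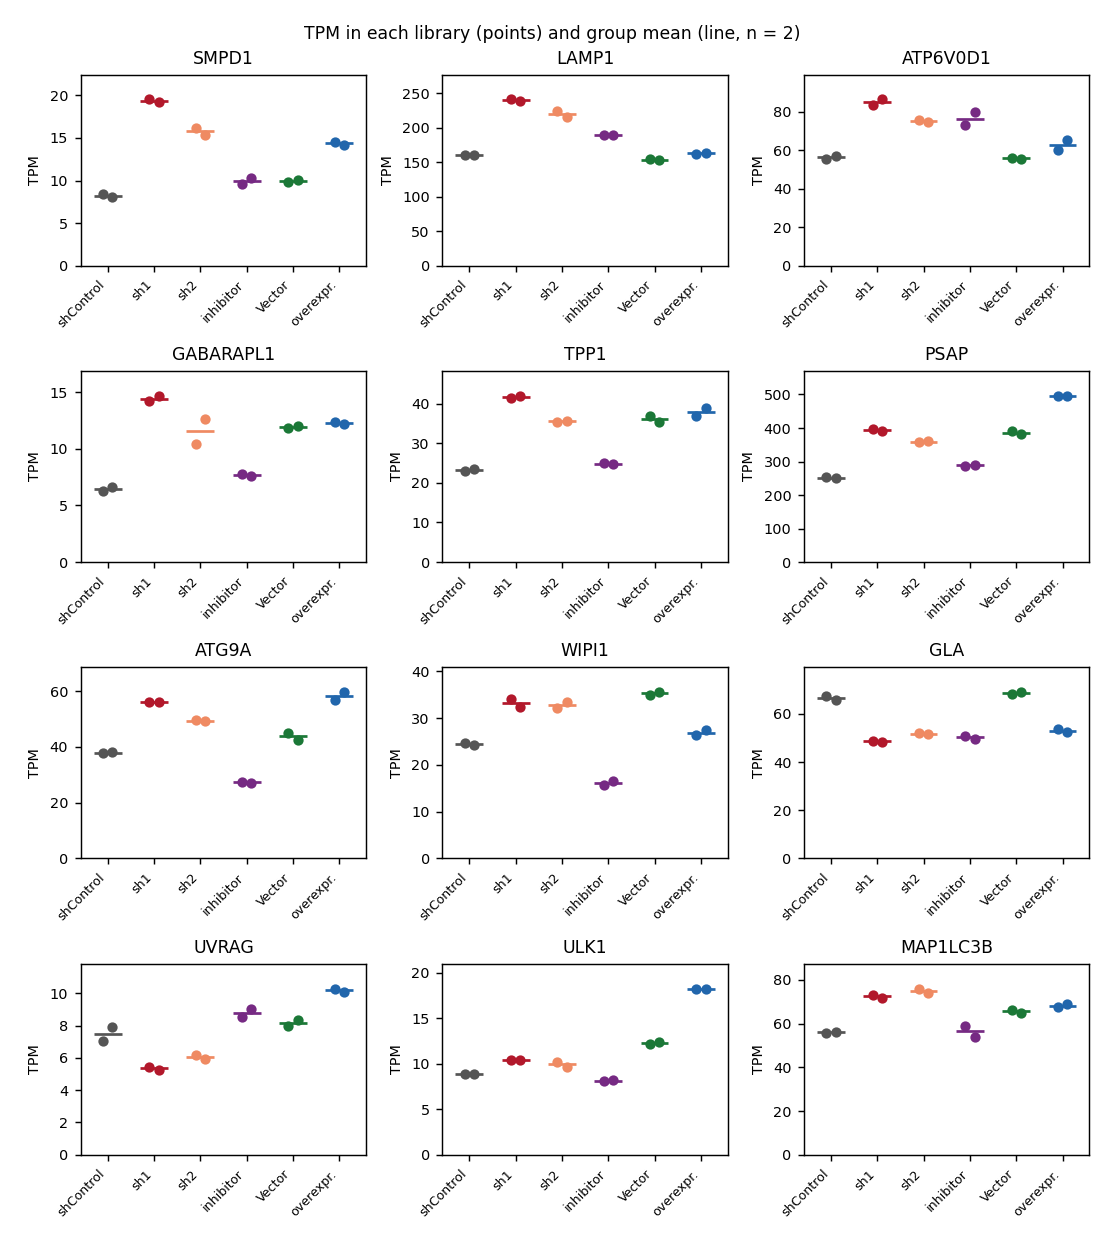
TPM of 12 of the 44 genes in every library (points) with the mean of each group of 2 (line), on axes that start at 0. SMPD1, LAMP1 and MAP1LC3B are highest in the hairpin libraries, WIPI1 and ATG9A lowest in the inhibitor libraries, ULK1 highest with overexpression, and GLA is lower in all 8 perturbed libraries than in the 4 controls.

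Overexpression of STK17B, compared with Vector, also raised more of these genes than it lowered. Of the 44, 20 were called higher and 3 lower, where 26.6% and 10.3% of all genes were, with a median log2 change of 0.13 against 0.08. Leaving out Vector replicate 1 lowered the higher count to 13. Of all genes called, 72.1% were higher, but 43.2% after median-of-ratios scaling and 46.3% after quantile normalization, which moved the median of all genes from 0.08 to -0.01 and -0.02 and that of the members from 0.13 to 0.03 and 0.06. The 3 lower members became 6 and 5 under these scalings, where 36.1% and 37.5% of all genes were called in either direction. ULK1, which starts autophagy, had the largest rise, and GLA, NEU1 and WIPI1 were the 3 that fell. Of the 10 plasma cell markers, 6 were called lower and 2 higher with overexpression (median -0.25), and their part in these changes was not tested.

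ULK1 (chromosome 12, 131894651 to 131923167, plus strand) was at 12.2 and 12.4 TPM in Vector and 18.2 and 18.2 TPM with overexpression, the 2 highest of all 12 libraries (0.53 ± 0.05 SE, adjusted p = 5.36e-05). Glycosidases were also among the largest rises. NAGLU was at 29.7 and 29.9 TPM in Vector and 41.4 and 40.2 TPM with overexpression (0.44 ± 0.05 SE, adjusted p = 0.000206). HEXA was at 147 and 147 TPM with overexpression (0.42 ± 0.03 SE, adjusted p = 6.32e-06), and GUSB, the beta-glucuronidase, at 135 and 133 TPM in Vector and 176 and 176 TPM with overexpression (0.39 ± 0.03 SE, adjusted p = 2.08e-05). The overexpression libraries did not overlap Vector for any of them.

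SMPD1 at 14.6 and 14.2 TPM was 0.49 ± 0.05 SE, adjusted p = 0.000146 above Vector, SCARB2 rose from 85.5 and 88.5 TPM to 116 and 115 TPM (0.40 ± 0.04 SE, adjusted p = 6.06e-05), and ATG9A was at 56.7 and 59.6 TPM (0.40 ± 0.04 SE, adjusted p = 6.46e-05). In each of these, too, both overexpression libraries were above both Vector libraries. PSAP at 496 and 496 TPM (0.36), progranulin (GRN, 0.38), GABARAP (0.35), ARSA (0.38) and FUCA1 (0.38) were also called higher. GLA at 53.5 and 52.3 TPM (-0.37 ± 0.03 SE, adjusted p = 3.63e-05), NEU1 (-0.22) and WIPI1 at 26.3 and 27.4 TPM (-0.38 ± 0.04 SE, adjusted p = 0.000195) were lower. Against shControl WIPI1 was instead called higher (0.12). The calls for LAMP1 (0.08), MCOLN1 (0.24), ATP6V0D1 (0.16) and LIPA (0.21) were lost under at least 6 other settings each, and LAMP1 turned to -0.03 after median-of-ratios scaling. Against shControl in place of Vector, 33 members were higher and 3 lower with overexpression, where 44.9% and 13.7% of all genes were. Against both control groups, 18 members were higher with overexpression (23.8% of all genes) and 2, GLA and NEU1, lower (7.8% of all genes).

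The hairpins lower STK17B and the vector raises it, so the difference of the 2 effects was tested, each effect taken against its own control. It was positive for 15 members and negative for 5, where 11.4% and 18.5% of all genes were called, with a median of 0.10 against -0.05. It was largest for GABARAPL1, at 0.90 with the hairpins and 0.04 with overexpression (difference 0.86 ± 0.10 SE, adjusted p = 0.000271), and for WIPI1, which went in opposite directions, at 0.41 and -0.38 (difference 0.79 ± 0.06 SE, adjusted p = 1.86e-05). UVRAG was the most negative, at -0.34 and 0.29 (difference -0.62 ± 0.09 SE, adjusted p = 0.000806). For SMPD1 the difference was 0.52 although both effects were positive, and for ATG9A (0.06), HEXA (0.10) and GLA (-0.04) it did not pass the test. With the 2 control groups exchanged, 4 were positive and 27 negative, and GABARAPL1 and WIPI1 turned negative. The exchange shifts every gene by its difference between the control groups, and no share over all genes is given for it. The members negative numbered 3 after median-of-ratios scaling and 3 without Vector replicate 2.

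Other genes of the same pathways, 137 in 9 lists of which 130 could be tested, were described by the same counts. With the hairpins 67 of the 130 rose and 11 fell against shControl (median 0.16), where 26.2% and 20.2% of all tested genes did. Against Vector 46 rose and 28 fell (median 0.05), where 18.6% and 29.4% did. The counts of single lists are small and are to be read against these shares. Among 13 autophagy receptors, 7 rose against shControl and 1 fell. SQSTM1, the p62 receptor that carries ubiquitinated cargo, was at 106 and 107 TPM in shControl, 199, 193, 166 and 167 TPM with the hairpins and 120.0 and 119 TPM in Vector (0.76 ± 0.02 SE, adjusted p = 9.32e-08 against shControl and 0.60 ± 0.02 SE, adjusted p = 2.86e-07 against Vector). All hairpin libraries were above both controls for SQSTM1, and NBR1 (0.62) and optineurin (OPTN, 0.59) rose against shControl as well. Against Vector, NBR1 (0.16) and OPTN (0.19) were called higher by less, and Vector was itself called above shControl for both (0.46 and 0.40). Among 22 other lysosomal enzymes tested 14 rose against shControl, among them CTBS (0.56) and the cholesterol carrier NPC2 (0.61). Compared with Vector, CTBS was at 0.05 and did not pass the test, and NPC2 was called lower (-0.21). Against Vector 7 of these 22 enzymes rose and 7 fell. In the list of TFEB regulators, 7 of 14 rose, led by folliculin (FLCN, 0.66), RRAGA (0.49) and LAMTOR1 (0.32), parts of the nutrient-sensing machinery on the lysosome. The 1 that fell was RRAGD, a Rag GTPase that TFEB and TFE3 induce (-0.22, and -0.37 against Vector, both called).

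Further with the hairpins, 11 of 18 other lysosomal membrane proteins rose against shControl. The sialic acid exporter SLC17A5 (0.60), CLN3 (0.60) and LAPTM5 (0.56) led them. Against Vector, SLC17A5 (0.30) and CLN3 (0.48) were still called higher, and LAPTM5 (0.04) did not pass the test. The cholesterol transporter NPC1 fell (-0.32, and -0.44 against Vector). Of 12 other proton pump genes 6 rose and 1 fell, and ATP6V1D (0.44), the proteolipid ATP6V0C (0.38) and ATP6V1C1 (0.32) led them. Of 14 genes of autophagosome and lysosome fusion 8 rose, with EPG5 (0.64), TECPR1 (0.63) and VPS41 (0.36) first, and the SNARE protein STX17 fell (-0.20). Against Vector these genes were at 0.28, 0.17, 0.28 and -0.32, all called. Enzyme sorting was divided, with 5 of 11 higher and 3 lower: NAGPA, which uncovers the mannose 6-phosphate tag, rose (0.35), while GNPTAB, which makes the tag (-0.40), and the adaptor subunit AP3D1 (-0.40) fell. WDR45 (0.51), WIPI2 (0.43) and ATG2A (0.34) led the 7 of 16 initiation genes that rose, and C12orf44 fell (-0.12). Set against Vector, WDR45 (0.45), WIPI2 (0.33) and ATG2A (0.21) were called higher, and C12orf44 (0.05) did not pass the test. In ATG8 conjugation 2 of 10 rose and 2 fell, with ATG4D (0.49) and ATG4B (0.14) higher and ATG3 (-0.20) lower among those named. Against Vector ATG4B was instead called lower (-0.12), while ATG4D (0.56) and ATG3 (-0.18) kept their direction and were called.

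With the inhibitor, 54 of the 130 rose and 9 fell against shControl (median 0.14), where 28% and 11.8% of all genes did. Against Vector 36 rose and 35 fell (median 0.03), where 26% and 27% did. The counts against shControl became 31 and 16 after median-of-ratios scaling, where 35.4% of all genes were called and 55.9% of these calls were higher. After quantile normalization they became 24 and 20, where 31.8% of all genes were called and 51.9% of these calls were higher. The autophagy receptors held the largest changes. BNIP3, a mitophagy receptor, was at 90.9 and 92.5 TPM in shControl and 22.3 and 23.4 TPM with the inhibitor (-1.96 ± 0.04 SE, adjusted p = 3.59e-09), and its relative BNIP3L was at 33.2 and 33.5 and 9.54 and 9.5 TPM (-1.71 ± 0.05 SE, adjusted p = 5.04e-08). SQSTM1, at 214 and 216 TPM, went the other way (1.01 ± 0.03 SE, adjusted p = 1.41e-08). Each of the 3 was called in the same direction against Vector (-1.58, -1.66 and 0.84), with no overlap. RRAGD fell (-0.58) while RRAGC rose (0.55), and ATP6V1D (0.50), TMEM192 (0.57), NAGPA (0.52) and VPS41 (0.46) were among the others that rose.

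With overexpression, 51 of the 130 rose and 7 fell against Vector (median 0.13), where 26.6% and 10.3% of all genes did. Against shControl 78 rose and 7 fell (median 0.25), where 44.9% and 13.7% did. The counts against Vector became 29 and 20 after median-of-ratios scaling, where 36.1% of all genes were called and 43.2% of these calls were higher. After quantile normalization they became 34 and 21, where 37.5% of all genes were called and 46.3% of these calls were higher. The counts against shControl became 48 and 23, and 49 and 23, with no share of all genes given under these scalings. BNIP3L went from 32.1 and 32.1 TPM to 74.1 and 68.5 TPM (1.12 ± 0.05 SE, adjusted p = 9.95e-07) and BNIP3 from 68 and 72.2 TPM to 123 and 119 TPM (0.78 ± 0.04 SE, adjusted p = 1.58e-06), the opposite of their direction with the inhibitor. With the hairpins BNIP3 was at -0.15 against shControl and 0.24 against Vector, both called. BNIP3L was at -0.08 and -0.03 with the hairpins, neither called. RRAGD also rose with overexpression (0.32). The sulfatase GALNS (0.62), MAN2B2 (0.57), the conjugation gene ATG16L2 (0.61), the potassium channel TMEM175 (0.51) and WDR45B (0.49) were among the other genes that rose. The proton pump subunit ATP6V0B (-0.27), GNPTAB (-0.34) and ATG4A (-0.24) fell. Vector was itself called above shControl for GNPTAB (0.23) and ATG4A (0.25), and below it for ATP6V0B (-0.18).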

How the data were processed

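RNA was measured in 12 libraries of KMS11 cells, 2 for each of 6 groups named in the labels. Per the labels' protocols, RNA was extracted with RNeasy, poly(A)-selected with oligo-dT, primed with random N6 and sequenced stranded on DNBSEQ. The build GRCh38.p13 and the tools RSEM 1.3.1, Bowtie2 2.3.4.3, HISAT and DESeq2 1.4.5 stand in the submitters' processing notes with no role given. The authors deposited 1 TPM value per gene and library, for 29607 genes, and whole read counts were not used here, so depth is unknown and no count model was fitted. The control columns carry numbers and no group name, and they were assigned to shControl and Vector by matching these numbers to the labels' library names, which is an inference.

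The 12731 genes that reached 1 TPM in 2 or more libraries entered the test on log2(TPM + 1), which understates changes of low genes, with limma 3.58.1 in R 4.3.3: 1 mean per group over all 12 libraries, which share 1 estimate of the spread, moderated with a trend, and Benjamini-Hochberg adjustment over all tested genes in each comparison. The step was tested on simulated data. A permutation test with 2 libraries per group cannot reach 0.05, and none was run. Every member's log2 change may be named. Values in each library are given for TFEB, TFE3, MCOLN1, LAMP1, LAMP2, ULK1 and the ATG8 members, and for up to 7 called members per main comparison with the largest change, a mean of at least 5 TPM in 1 group and no overlap, and for up to 3 genes per list of other pathway genes. 1 gene that this rule names is not reported here. Further members were added after their values were seen. The members and lists were chosen with earlier results of these data known. Alternatives were pseudocount 0.1, no filter, a filter at 5 TPM, median-of-ratios and quantile scaling, no trend, a replicate block, only the groups compared, exchanged control columns and leaving out each library. The 2 scalings were applied to the lists of other pathway genes after their values had been seen. Promoter windows came from RefSeq (GRCh38.p14) and gene positions from GENCODE 29.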

Additional observations from a re-analysis of the deposited data

Results flagged for a closer look

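The effects of the 2 hairpins on 4 members differed by limma's test of the difference between them, with a Benjamini-Hochberg adjusted p below 0.05. The log2 difference of sh2 from sh1 was -0.28 for SMPD1, -0.22 for TPP1, -0.19 for ATP6AP1 and -0.13 for PSAP. In each, both hairpins were above shControl and sh1 was the higher of the 2, in 2 of 2 libraries. All 4 differences lost their calls without any 1 hairpin library, without the trend, with a replicate block and in a fit of these groups alone.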

How the results depend on the processing

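With the control columns exchanged, which sets each group against the other control, the members higher and lower with the hairpins became 12 and 10, with the inhibitor 7 and 24, and the members higher with overexpression became 33. The knockdown effect minus the overexpression effect then had 4 members positive and 27 negative, with no share over all genes given under the exchange. Among the members called in the comparison as reported, hairpin effects that turned sign under the exchange were ARSA -0.013, ASAH1 -0.12, CD63 -0.13, FUCA1 -0.057, GAA -0.30, GABARAP -0.038, GM2A -0.19, GRN -0.29, GUSB -0.014, MANBA -0.14, PSAP -0.040, TFE3 -0.20, ULK1 -0.25 and WIPI1 -0.10. For the inhibitor they were ASAH1 -0.33, FUCA1 -0.068, GABARAPL1 -0.58, HEXA -0.13 and PSAP -0.42, and for overexpression WIPI1 at 0.12. For the knockdown minus the overexpression effect they were ASAH1 -0.70, ATP6AP1 -0.0088, ATP6V0A1 -0.46, CD63 -0.52, CTNS -0.022, GABARAPL1 -0.73, MAN2B1 -0.16, MAP1LC3B -0.11, PSAP -1.01, TPP1 -0.59 and WIPI1 -0.22. Members not called were not followed here. The cause of these shifts is the difference between the control groups by construction. The exchange was not run for Vector against shControl, where it only changes the sign.

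After median-of-ratios scaling, the members higher and lower with the inhibitor were 9 and 8, those lower against both controls 8, those lower with overexpression 6, those lower in Vector than shControl 3, those lower in sh2 than sh1 2, those higher with the inhibitor than the hairpins 3, and those negative for the knockdown minus the overexpression effect 3, and LAMP1 turned to -0.029 with overexpression. After quantile normalization the corresponding counts were 7 and 11, 10, 5 and 1, with 1 higher with the inhibitor than the hairpins, and HEXA turned to -0.032 with the inhibitor. The direction of the calls over all genes also moved with the scaling, so these counts are not to be set against the unscaled shares. Members lower in Vector numbered 1 with the filter at 5 TPM and 1 in a fit of only the groups compared. Members lower in sh2 numbered 2 without the filter and 0 without the trend, with the replicate block and with only the groups compared. Members higher with the inhibitor than the hairpins numbered 2 without the filter and 3 with only the groups compared. Beyond the differences in scale, the cause was not tested.

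Leaving out 1 library at a time gave 29 to 32 members higher with the hairpins, 8 to 11 with the inhibitor, 13 to 17 with overexpression, 20 to 27 in Vector, 0 to 0 lower in sh2, 2 to 4 higher and 20 to 26 lower with the inhibitor than the hairpins, and 12 to 16 positive and 3 to 5 negative for the knockdown minus the overexpression effect. Where this leaves a group with 1 library, that library is assumed to vary like the others. Members called against both control groups numbered 10 to 12 higher with the hairpins, 3 to 4 with the inhibitor and 13 to 18 with overexpression. Libraries with the same replicate number did not deviate together: over 15 pairs of groups the correlations ran from -0.104 to 0.14, and 1 was above 0.1. With a replicate block in the fit the members higher and lower were 31 and 2 with the hairpins, 13 and 4 with the inhibitor, 20 and 3 with overexpression, and 26 higher in Vector. Depth is unknown, and 2 libraries per group limit the precision of every value. The pseudocount, the filters, the trend and the replicate block changed no other count of members by more than 1.5 times.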
